A study of Mus musculus with 2 samples.

Results

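The Wnt genes studied here are 53 mouse genes of Wnt signalling, taken by name from the GENCODE M21 annotation, out of 21911 protein-coding genes that were measured in the same way. They comprise 19 Wnt ligands, 15 receptors and co-receptors (Fzd1 to Fzd10, Lrp5, Lrp6, Ror1, Ror2 and Ryk), 4 R-spondins, 8 secreted antagonists (Sfrp1, Sfrp2, Sfrp4, Sfrp5, Frzb, Dkk1, Dkk2 and Dkk3) and 7 intracellular effectors (Axin1, Axin2, Lef1, Tcf7, Tcf7l1, Tcf7l2 and Ctnnb1). All 53 were found in the annotation, and the rule that names them uses no measured value. Chromatin accessibility was mapped by DNase-seq, in which an endonuclease cuts DNA that is not protected by nucleosomes, in embryonic facial prominence at embryonic day 14.5. The tissue came from healthy B6NCrl mouse embryos, with males and females pooled, and the 2 biological replicates are separate biosamples that share a donor record. Both belong to 1 group with no genotype or treatment contrast, so no test between conditions was possible, and the spread between the replicates is the only error available.

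Wnt proteins are lipid-modified secreted ligands that bind a Frizzled receptor, together with the co-receptor Lrp5 or Lrp6 in the canonical branch or with Ror1, Ror2 or Ryk in other branches. In the canonical branch the Axin-containing destruction complex is disabled, β-catenin (Ctnnb1) accumulates and enters the nucleus, and LEF/TCF proteins recruit it to DNA. Sfrp proteins and Frzb bind Wnts outside the cell, Dkk1 and Dkk2 act on Lrp5 and Lrp6, and R-spondins raise receptor levels through Lgr receptors. In the developing face Wnt signalling is known for its part in the outgrowth and fusion of the prominences, the palate, tooth buds and skeleton, and loss of Wnt9b causes clefts of the lip in mice.

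Replicate 1 held 304489 peaks and replicate 2 held 218221, each 150 bp wide, with median authors' scores of 50 and 37 on a scale that ran from 1 to 150 in replicate 1. Shared sites, where a peak of replicate 1 overlapped a peak of replicate 2, numbered 177440 in all. Read depth is unknown, so a site missing from a list was not detected at that depth and is not shown to be closed. Shared promoter sites, found at 67.5% of all protein-coding genes, were also counted at markers of cell types. They were found at 10 of 10 facial mesenchyme markers and 6 of 6 epithelial markers. The same held for 5 of 5 neuronal, 5 of 5 skeletal muscle and 4 of 5 endothelial markers. For blood the count was 0 of 5, and for organs that should be absent it was 1 of 5. With so few markers and so high a share over all genes, these counts do not show which cell types were present. In tissue that may hold several cell types, opening in fewer cells and weaker opening in each cell cannot be told apart.

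The 9 sequences below are those, among the 3 highest-ranked distal sites of each role, for which the Wnt gene has the nearest TSS of a protein-coding gene. Here and below, unless another annotation is named, the gene nearest to a site was sought among protein-coding genes only. Start sites of noncoding transcripts can lie closer. A distal site lay over 1000 bp from every transcription start site (TSS) of the basic annotation, and sites were ranked by the mean of their score percentiles in the 2 lists. Each is the 150 bp peak of replicate 1 on the + strand of mm10, and capitals mark a LEF/TCF match, CTTTGAT or CTTTGAA on either strand.

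Wnt7b upstream, chr15:85634636-85634785: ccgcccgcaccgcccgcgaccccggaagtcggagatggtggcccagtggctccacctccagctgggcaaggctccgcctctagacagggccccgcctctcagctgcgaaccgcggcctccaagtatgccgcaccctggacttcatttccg
Wnt6 intron, chr1:74773196-74773345: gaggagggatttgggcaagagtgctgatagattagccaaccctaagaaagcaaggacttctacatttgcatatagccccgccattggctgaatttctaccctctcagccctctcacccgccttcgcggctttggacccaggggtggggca
Ror2 upstream, chr13:53309756-53309905: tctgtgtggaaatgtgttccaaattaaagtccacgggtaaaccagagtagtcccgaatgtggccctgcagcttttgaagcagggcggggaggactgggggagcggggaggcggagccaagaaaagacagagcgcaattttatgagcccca
Rspo3 intron, chr10:29532996-29533145: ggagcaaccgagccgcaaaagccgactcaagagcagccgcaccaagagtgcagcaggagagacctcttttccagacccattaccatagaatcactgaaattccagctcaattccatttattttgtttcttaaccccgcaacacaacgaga
Rspo2 downstream, chr15:42962836-42962985: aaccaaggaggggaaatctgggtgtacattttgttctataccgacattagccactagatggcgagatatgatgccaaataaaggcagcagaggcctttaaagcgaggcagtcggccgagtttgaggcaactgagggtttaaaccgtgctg
Sfrp2 upstream, chr3:83764356-83764505: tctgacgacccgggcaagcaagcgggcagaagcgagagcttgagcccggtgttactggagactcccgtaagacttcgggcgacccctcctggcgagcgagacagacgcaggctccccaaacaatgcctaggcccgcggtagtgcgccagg
Dkk3 upstream, chr7:112180276-112180425: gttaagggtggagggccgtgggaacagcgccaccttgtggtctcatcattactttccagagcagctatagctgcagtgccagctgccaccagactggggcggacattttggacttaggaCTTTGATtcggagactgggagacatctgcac
Sfrp1 downstream, chr8:23504876-23505025: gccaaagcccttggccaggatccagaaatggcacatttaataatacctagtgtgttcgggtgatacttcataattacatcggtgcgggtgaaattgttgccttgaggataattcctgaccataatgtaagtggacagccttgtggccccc
Tcf7l1 intron, chr6:72711656-72711805: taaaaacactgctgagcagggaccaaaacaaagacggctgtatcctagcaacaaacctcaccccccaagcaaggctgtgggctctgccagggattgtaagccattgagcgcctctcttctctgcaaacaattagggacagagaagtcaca

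Distances to sites or peaks given in kb are taken to their midpoints, and those given in bp to their nearest edge. The Wnt6 intronic site lay 1.4 kb from the TSS and scored 132 in replicate 1 and 108 in replicate 2. The Ror2 site lay 23.7 kb upstream and scored 130 and 104 in replicates 1 and 2, and RefSeq starts a predicted long noncoding RNA, Gm33631, 6 bp from it. The Rspo2 site scored 101 in replicate 1 and 97 in replicate 2 and lay 207.9 kb from the Rspo2 TSS, past the 3′ end of the gene in intergenic sequence. The Sfrp2 site, 1.9 kb upstream, scored 129 and 109. The Dkk3 site, 21.3 kb upstream, scored 103 and 104 and was the only one of these 9 with a LEF/TCF match. The Tcf7l1 intronic site, 77.5 kb from the TSS, scored 142 and 111. The Wnt7b, Rspo3 and Sfrp1 sites are described with their genes. All 9 are in both lists by the definition of a shared site. All but the Dkk3 site scored higher in replicate 1, whose list also had the higher median score.

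Axin2, which encodes a destruction complex scaffold and is a textbook target of the canonical branch, and Lef1, which encodes a DNA-binding partner of β-catenin, were examined for LEF/TCF matches. The 150 bp windows below, centred on shared distal sites, are shown because they hold such matches in these 2 windows, again on the + strand of mm10 with the match in capitals.

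Axin2 intron, chr11:108935405-108935554: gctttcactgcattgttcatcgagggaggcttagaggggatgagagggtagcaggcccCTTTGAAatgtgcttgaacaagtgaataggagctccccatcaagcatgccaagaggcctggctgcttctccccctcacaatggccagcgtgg
Axin2 intron, chr11:108947545-108947694: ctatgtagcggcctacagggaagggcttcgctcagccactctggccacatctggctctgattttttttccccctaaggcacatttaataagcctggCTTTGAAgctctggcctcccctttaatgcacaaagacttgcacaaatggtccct
Axin2 downstream, chr11:108961835-108961984: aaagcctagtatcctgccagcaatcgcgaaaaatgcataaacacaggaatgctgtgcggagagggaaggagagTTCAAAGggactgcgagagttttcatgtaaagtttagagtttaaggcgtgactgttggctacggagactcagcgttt
Axin2 downstream, chr11:109039165-109039314: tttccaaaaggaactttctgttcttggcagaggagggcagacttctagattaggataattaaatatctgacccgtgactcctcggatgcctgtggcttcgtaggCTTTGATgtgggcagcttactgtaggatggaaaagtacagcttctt
Lef1 upstream, chr3:131014385-131014534: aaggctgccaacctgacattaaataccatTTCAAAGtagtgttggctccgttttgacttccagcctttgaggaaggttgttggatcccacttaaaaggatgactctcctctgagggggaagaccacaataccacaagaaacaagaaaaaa
Lef1 upstream, chr3:131079135-131079284: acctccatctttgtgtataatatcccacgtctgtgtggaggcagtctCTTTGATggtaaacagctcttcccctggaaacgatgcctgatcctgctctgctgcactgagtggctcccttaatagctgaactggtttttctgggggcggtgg
Lef1 upstream, chr3:131106015-131106164: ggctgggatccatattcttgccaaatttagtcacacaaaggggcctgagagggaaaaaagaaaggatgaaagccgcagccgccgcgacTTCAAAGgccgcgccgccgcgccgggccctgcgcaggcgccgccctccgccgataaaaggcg
Lef1 intron, chr3:131196755-131196904: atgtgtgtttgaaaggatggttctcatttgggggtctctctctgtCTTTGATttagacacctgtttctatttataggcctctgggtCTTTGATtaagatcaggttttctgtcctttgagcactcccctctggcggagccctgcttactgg

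At Axin2, 4 of 34 shared distal sites (11.8%) held a match, and at Lef1 4 of 36 (11.1%), against 80 of 1199 distinct sites (6.67%) in the windows of all 53 genes and 6.0% of all 140271 distal sites. The Axin2 sites with a match scored 60 and 40 in replicates 1 and 2 at 15.1 kb from the TSS, 108 and 74 at 27.3 kb, 114 and 70 at 41.6 kb, and 80 and 50 at 118.9 kb, where the nearest TSS was that of E030025P04Rik. The Lef1 sites with a match scored 73 and 38 at 96.0 kb upstream, 34 and 23 at 31.3 kb upstream, 102 and 88 at 4.4 kb upstream, and 50 and 37 in the intron at 86.4 kb, where 2 matches fell in the same window. That intronic site was nearer to the TSS of Hadh than to that of Lef1. Replicate 1 had the higher score at all 8 sites, and also the higher median score over its whole list. By role, 7.43% of receptor sites, 8.45% of R-spondin sites, 6.22% of effector sites, 6.12% of ligand sites and 5.99% of antagonist sites held a match, so antagonist sites were at the share of all distal sites and the others within a few percentage points of it. A match is a run of letters and not a measured site of binding.

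Promoters of the Wnt genes were mostly open. A promoter counted as open when a shared peak site lay within 500 bp of any of the gene's TSSs. Of 53 genes, 48 had such a site (90.6%), against 67.5% of all protein-coding genes. Replicate 1 alone gave 49 genes with a promoter peak, against 70.9% of all genes, and replicate 2 alone gave 48, against 68.7%. Hotspots, the authors' broader regions of enriched cutting, gave 48 genes with a shared promoter hotspot, against 68.2% of all genes. All 15 receptors, 4 R-spondins, 8 antagonists and 7 effectors had a shared promoter site, and 14 of 19 ligands did (73.7%). CpG-rich promoters are open in most tissues, and 41 of the 53 genes had a promoter with a CpG observed-to-expected ratio above the median of all genes. With all promoters placed in 10 classes of CpG content, the open shares of the classes that the 53 genes fall in add up to 48.1 genes, beside the 48 that were open. Among the 41 genes above the median, 39 were open, and the class shares add up to 39.8. Among the 12 below it, 9 were open, and the class shares add up to 8.3. Over all 53 genes, the number of open Wnt promoters was therefore close to that of promoters of like CpG content. Such sums were not made for each role, so the 73.7% of ligands was not compared in this way.

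**Figure D1:**
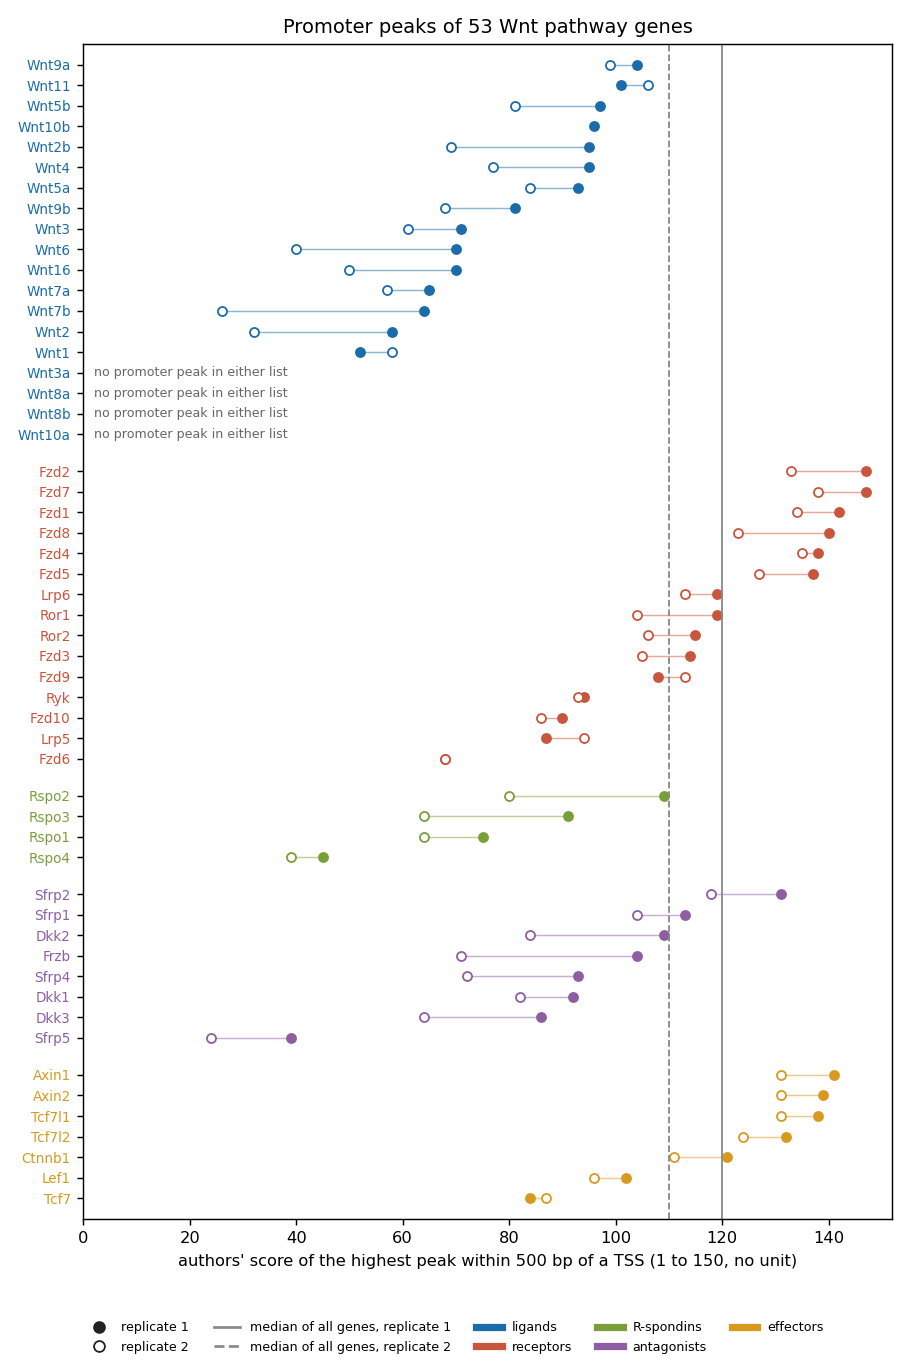
Authors' score of the highest promoter peak (x axis, 1 to 150, no unit) of each of the 53 genes, in role colours. Filled points are replicate 1 and open points replicate 2, and vertical lines mark the medians of all protein-coding genes with a promoter peak, at 120 (replicate 1) and 110 (replicate 2). All 15 ligands with a peak in replicate 1 lie left of its line, while 6 Frizzled genes and 5 effectors lie right of the line of the replicate in both lists.

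The promoter peak scores of the roles had different medians and overlapping ranges. In replicate 1 the median of the highest promoter score was 81 for ligands, 119 for receptors, 83 for R-spondins, 98.5 for antagonists and 132 for effectors, against 120 for all genes with a promoter peak. In replicate 2 these medians were 64.5 for ligands, 113 for receptors, 64 for R-spondins, 77 for antagonists and 124 for effectors, against 110 for all genes. Effectors were above receptors and receptors above antagonists in both lists, and ligands and R-spondins were within 2 score units of each other. Median promoter CpG ratios were 0.86 for effectors, 0.84 for receptors, 0.74 for ligands, 0.69 for R-spondins and 0.57 for antagonists. Antagonists, with the lowest ratio, had higher median scores than ligands in both lists. Neither scores nor promoter hotspot widths were compared within classes of CpG content. All 15 ligands with a promoter peak in replicate 1 and all 14 in replicate 2 scored below the all-gene median, as did all 4 R-spondins in both lists, 7 of 8 antagonists in both lists and 2 of 7 effectors in both lists. The receptors were spread, with 9 of 15 below the median in replicate 1 and 7 of 15 in replicate 2. The plot of promoter scores shows this, with the ligand points left of the all-gene lines. These scores rank peaks within a list and do not measure expression.

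Among ligands, Wnt9a had the highest promoter score in replicate 1, 104, with 99 in replicate 2, and Wnt11 the highest in replicate 2, 106, with 101 in replicate 1. Wnt5b (97 in replicate 1 and 81 in replicate 2), Wnt4 (95 and 77), Wnt2b (95 and 69) and Wnt5a, a ligand mainly of the non-canonical branch (93 and 84), followed. Wnt9b, needed for closure of the upper lip in mice, was lower at 81 and 68, and its neighbour Wnt3 stood at 71 and 61. Wnt6 (70 and 40), Wnt16 (70 and 50), Wnt7a (65 and 57), Wnt2 (58 and 32) and Wnt1 (52 and 58) formed the low end of the ligands with a shared site. Differences between neighbours in this order were often smaller than the gap between the 2 replicates of the same gene, so only the ends of the order are distinct.

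The 5 ligands without a shared promoter site were Wnt3a, Wnt7b, Wnt8a, Wnt8b and Wnt10a. Wnt3a, Wnt8a, Wnt8b and Wnt10a had no peak within 500 bp of a TSS in either list. Wnt8a and Wnt8b have CpG-poor promoters (ratios of 0.25 and 0.33) and so does Wnt10a (0.39), and in their classes of CpG content 27.6% of all promoters (Wnt8a) and 56.4% (Wnt8b and Wnt10a) were open. Wnt3a was different, with a CpG ratio of 0.75 in a class where 96.4% of promoters were open. Wnt7b, with a ratio of 0.89 in a class where 98.3% were open, had promoter peaks in both lists that did not overlap. Replicate 1 had Wnt7b peaks of 61, 62 and 64 at 3 places, and replicate 2 had a single peak of 26. Just outside the window, 663 and 683 bp from a Wnt7b TSS, lay overlapping peaks of 104 in replicate 1 and 97 in replicate 2. With windows of 1000 bp Wnt7b therefore counted as open, and so did Wnt8a, through peaks of 36 and 29.

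Wnt10b was the only gene with a promoter peak in 1 list only, replicate 1, a pattern found in 3.17% of all protein-coding genes. Its replicate 1 peak of 96 lay 464 bp from the TSS and the overlapping replicate 2 peak of 70 lay 504 bp from it, so the site was shared while the replicate 2 peak fell just outside the window. Replicate 1 also had Wnt10b peaks of 52 and 48 at 41 and 346 bp from a TSS, where replicate 2 had none. A few other promoters changed status with the setting. Wnt2, Rspo4 and Sfrp5 lost theirs when only the stronger part of each list (scores at or above its median) was used, and Rspo3 lost its site when an overlap of 75 bp was required. The remaining 46 genes had the same status under all the settings tried for promoters (Wnt7b, Wnt8a, Wnt10b, Wnt2, Rspo3, Rspo4 and Sfrp5 being the exceptions).

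Receptor promoters included the strongest of the set. Fzd7 scored 147 in replicate 1 and 138 in replicate 2. Its replicate 2 score was at percentile 98.0 of all genes with a promoter peak in that list, with ties split evenly. Fzd2 scored 147 and 133, Fzd1 142 and 134, Fzd8 140 and 123, Fzd4 138 and 135 and Fzd5 137 and 127, and these 6 Frizzled genes were above the all-gene median in both lists. Fzd3 (114 and 105), Fzd9 (108 and 113), Fzd10 (90 and 86) and Fzd6 (68 and 68) were lower, with Fzd9 above the median in replicate 2 only. The co-receptor Lrp6 scored 119 and 113 and its paralogue Lrp5 87 and 94. The alternative receptors scored 119 and 104 at Ror1, 115 and 106 at Ror2 and 94 and 93 at Ryk. The gap between the upper 6 Frizzled genes and Fzd6 and Fzd10 was larger than the gap between replicates at each of these 8 genes.

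R-spondin promoters scored 109 and 80 at Rspo2, 91 and 64 at Rspo3, 75 and 64 at Rspo1 and 45 and 39 at Rspo4, in replicates 1 and 2. Rspo2, which is known for its role in limb and craniofacial outgrowth in the mouse, was thus the highest and Rspo4 the lowest in both lists. Among antagonists Sfrp2 stood highest at 131 and 118, the only antagonist above the all-gene median, followed by Sfrp1 at 113 and 104. Dkk2 (109 and 84), Frzb (104 and 71), Sfrp4 (93 and 72), Dkk1 (92 and 82) and Dkk3 (86 and 64) were intermediate, and Sfrp5 was lowest at 39 and 24.

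Effector promoters were high at Axin1 (141 in replicate 1 and 131 in replicate 2), Axin2 (139 and 131), Tcf7l1 (138 and 131) and Tcf7l2 (132 and 124). Ctnnb1, which encodes β-catenin, scored 121 and 111, 1 unit above the all-gene median in each list. Lef1 (102 and 96) and Tcf7 (84 and 87), which encode LEF/TCF proteins, were the only effectors below it. The 4 genes of the LEF/TCF family therefore fell into a higher pair and a lower pair, whose replicate values did not overlap.

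Wide promoter hotspots were found mainly at receptors and effectors. A hotspot of 1 kb or more at the promoter in both replicates was found at 17 of 53 genes, against 23.5% of all protein-coding genes. These were 10 of 15 receptors, 5 of 7 effectors, 1 of 19 ligands, 1 of 8 antagonists and 0 of 4 R-spondins. The ligand was Wnt5a, whose hotspot was 2346 bp wide in replicate 1 and 1430 bp wide in replicate 2, and the antagonist was Sfrp2, with 1077 and 1152 bp. In replicate 1 the median width was 421 bp for ligands with a hotspot, 1190 bp for receptors, 681.5 bp for R-spondins, 506.5 bp for antagonists and 1672 bp for effectors, against 867 bp for all genes. In replicate 2 it was 370 bp for ligands, 1237 bp for receptors, 620.5 bp for R-spondins, 429 bp for antagonists and 1423 bp for effectors, against 874 bp for all genes. At Fzd8, whose hotspot spanned 3331 bp in replicate 1, it spanned 1003 bp in replicate 2, so single widths can differ by more than 3 times between replicates.

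Several genes have start sites over 1000 bp apart. Wnt11 scored 66 and 64 at its first start site and 101 and 106 at one 3.7 kb downstream, and Wnt5b scored 68 and 43 at its first start site, had no peak at one 77.1 kb downstream and scored 97 and 81 at one 95 kb downstream. For both ligands the downstream start site was the stronger in both replicates. Axin2 ran the other way, with 139 and 131 at the first start site and 98 and 75 at one 2.8 kb downstream, as did Tcf7l2, with 132 and 124 at the first and 82 and 75 at one 153.7 kb downstream. Wnt5a had 90 and 84 at the first start site and 93 and 69 at one 6.7 kb downstream, where the replicates did not give the same order. Lef1 had 98 and 84 at the first and 102 and 96 at one 2.3 kb downstream.

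Outside promoters, open sites were denser around the Wnt genes than around most genes. Each gene was given a window of its body and 100 kb on either side, and shared distal sites were counted in it by their midpoints. A site in the windows of several genes counted for each of them, which applied to 79 distinct sites of the Wnt windows. The median density was 9.55 sites per 100 kb for the 53 genes, against 6.29 for all protein-coding genes, a ratio of 1.52. With the peaks of a single replicate this ratio was 1.47 in replicate 1 and 1.41 in replicate 2. It was 1.53 for ligands (9.64 per 100 kb), 1.52 for receptors (9.55), 1.13 for R-spondins (7.1), 1.4 for antagonists (8.82) and 1.82 for effectors (11.47). Of 53 genes, 46 were above the all-gene median, against 50% of all genes, and none lacked a shared distal site, against 7.64% of all genes. The densest 10% of all genes started at 11.87 sites per 100 kb and held 11 of the 53. That count was 17 with replicate 1 alone, 17 when distal sites were defined by the comprehensive annotation and 7 per 100 kb of sequence over 1 kb from every TSS, so it rests on the setting.

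**Figure D2:**
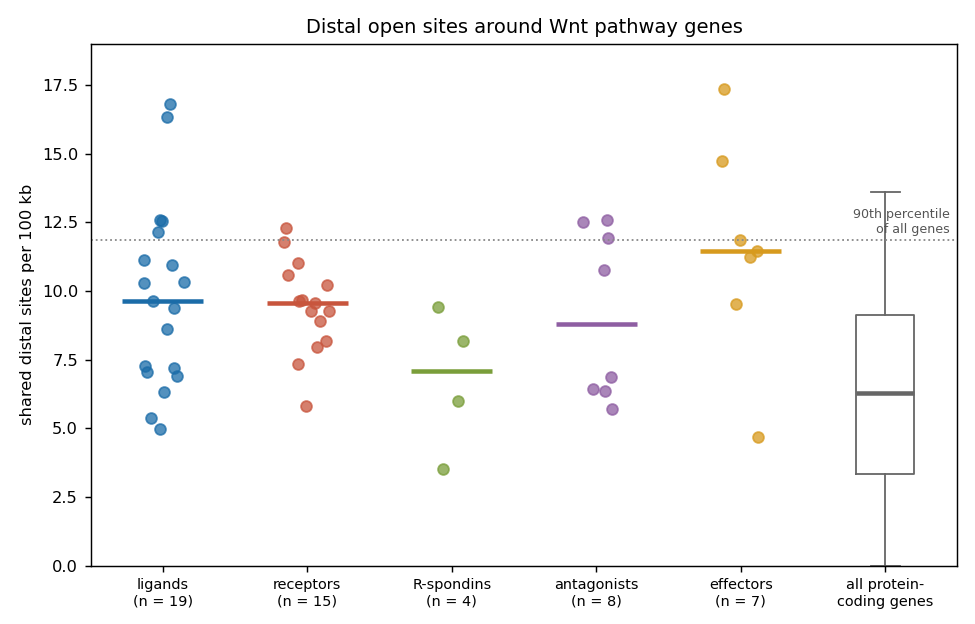
Shared distal sites per 100 kb of window (y axis) for each gene (points) by role, with role medians as bars. The box gives the quartiles and median of all protein-coding genes, its whiskers the 5th and 95th percentiles, and the dotted line the density at which the densest 10% begins, 11.87. Medians run from 7.1 for R-spondins to 11.47 for effectors, against 6.29 for all genes.

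The windows held 1199 distinct distal sites, 0.855% of all distal sites, of which 598 lay in introns, 515 between genes and 86 in exons. A Wnt gene had the nearest protein-coding TSS for 717 of them (59.8%), so many sites in these windows are closer to another protein-coding gene. Their median mean rank percentile was 65.9, against 57.7 for all distal sites, and 102 of them (8.51%) were at percentile 90 or above, against 5.99% of all distal sites. Of the 1199, 25 lay within 1000 bp of a start site of the comprehensive GENCODE annotation and 64 within 1000 bp of a RefSeq start site, so most of the sites called distal were distal by these annotations too.

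Among ligands the densest windows were those of Wnt11 (37 sites, 16.81 per 100 kb), Wnt9a (37 sites, 16.33) and Wnt4 (28 sites, 12.6), and Wnt5a (28 sites, 12.57) and Wnt7b (30 sites, 12.14) were also in the densest 10%. Wnt11 is known for roles in cell movement, Wnt9a for joint formation and Wnt4 for kidney and gonad development. The Wnt11 window held 60 distal peaks in replicate 1 and 47 in replicate 2, and 34 of its 37 shared sites were nearest to Wnt11. The Wnt9a window held 57 and 45, but only 8 of its 37 sites were nearest to Wnt9a. The Wnt4 window held 43 and 31, with 21 of 28 sites nearest to Wnt4. For Wnt5a all 28 sites were nearest to it among protein-coding genes, with 51 and 31 distal peaks. The lowest ligand densities were at Wnt8b (4.98, from 20 peaks in replicate 1 and 14 in replicate 2) and Wnt2 (5.38, from 20 and 16), the only ligands below the all-gene median.

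Wnt7b, a ligand known from lung and skeletal development, combined no shared site within 500 bp of its start sites with the strongest distal site of any ligand window. That site, at chr15:85634616-85634785, lay 52.2 kb upstream and scored 144 in replicate 1 and 135 in replicate 2. RefSeq starts a long noncoding RNA, D130051D11Rik, 20 bp from it, while the nearest start site of the comprehensive GENCODE annotation was 11298 bp away. Its window held 57 distal peaks in replicate 1 and 38 in replicate 2.

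Pairs of Wnt ligand genes lie next to each other at 4 places in the mouse genome and share most of their windows. Wnt3a and Wnt9a, with start sites 16.2 kb apart, shared 26 sites, of 27 in the Wnt3a window and 37 in the Wnt9a window. Wnt6 and Wnt10a, 19.6 kb apart, shared 20 sites, of 20 and 22. Wnt1 and Wnt10b, 11.7 kb apart, shared 19, of 21 and 20, and Wnt3 and Wnt9b, 24.3 kb apart, shared 14, of 21 and 16. Windows of such pairs overlap by construction, so most of their distal sites are the same, whereas their promoters are measured separately. Wnt9a scored 104 and 99 where Wnt3a had no promoter peak, and Wnt6 scored 70 and 40 where Wnt10a had none. The strongest distal site near Wnt9a, with 132 in replicate 1 and 105 in replicate 2, lay 86.9 kb from its start and was nearest to Prss38.

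Receptor windows were more alike. Their densities ran from 5.83 per 100 kb at Fzd8 to 12.3 at Fzd10, and 14 of 15 were above the all-gene median. The densest were Fzd10 (25 sites, with 51 distal peaks in replicate 1 and 27 in replicate 2), Fzd2 (24 sites, 11.78 per 100 kb, 41 and 34 peaks) and Fzd4 (23 sites, 11.02 per 100 kb, 51 and 23 peaks). Of these sites, 18 were nearest to Fzd10, 10 to Fzd2 and 7 to Fzd4. Fzd4 is also the receptor of the ligand Norrin in retinal vessels. Fzd10 thus had the densest receptor window with a promoter below the all-gene median, and Fzd8, whose promoter was among the highest, had the sparsest. Ror1 had 58 sites, 43 of them inside the gene body, and Ror2 had 36, 19 of them inside it. Ror2 encodes a receptor for Wnt5a, and 8 of its sites were at percentile 90 or above, the highest number among receptors. The strongest distal sites of a receptor window were in that of Fzd3, at 146 and 133 and at 139 and 131 in replicates 1 and 2, but the nearest start sites were those of Zfp395, 14.7 kb away, and Extl3, and the second lay 101 bp from an Extl3 start site of the comprehensive annotation.

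R-spondin windows were the sparsest role. Rspo1 had 9.43 sites per 100 kb (38 distal peaks in replicate 1 and 23 in replicate 2), Rspo4 8.2 (30 and 23), Rspo2 6.0 (43 and 22) and Rspo3 3.53 (19 and 11), so Rspo1 and Rspo4 were above and Rspo2 and Rspo3 below the all-gene median of 6.29. Rspo3 was the lowest of all 53 genes. At Rspo2 all 21 sites were nearest to the gene and 16 lay inside it, whereas at Rspo4 3 of 19 were nearest to it. The strongest site in the Rspo4 window, at 133 and 120, was nearest to Fam110a, and the strongest at Rspo3, at 114 and 93, lay in its intron 2.8 kb from the start.

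Antagonist windows were densest at Sfrp1 (30 sites, 12.6 per 100 kb), Sfrp2 (26 sites, 12.5) and Dkk3 (29 sites, 11.93), a divergent Dkk family member that does not act like Dkk1 on Lrp6. The Sfrp1 window held 43 distal peaks in replicate 1 and 38 in replicate 2, the Sfrp2 window 35 and 35, and the Dkk3 window 51 and 36. The strongest Sfrp1 site, at 92 and 89, lay 93.5 kb from the start, past the gene. Sfrp4 (5.72) was the only antagonist below the all-gene median, and Dkk1, the best-known Lrp6 antagonist, had 14 sites at 6.87 per 100 kb.

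Tcf7l2, which encodes a LEF/TCF protein, had more distal sites than any other gene of the set, 68 in all, at 17.35 per 100 kb, a density above that of 99.1% of all protein-coding genes. All 68 were nearest to Tcf7l2 and 44 lay inside it, and the window held 108 distal peaks in replicate 1 and 78 in replicate 2. Axin2 had the next densest effector window, with 34 sites at 14.75 per 100 kb, 32 of them nearest to it, from 56 and 37 peaks. Tcf7l1, a LEF/TCF protein that acts mainly as a repressor, had 43 sites at 11.85 per 100 kb, from 88 and 49 peaks. Of these sites 26 lay inside the gene, but only 14 were nearest to it. The window held 9 sites at percentile 90 or above, the highest number of any gene here. The second-ranked site at Tcf7l1, at 129 and 114, was nearest to Tgoln1 and lay 198 bp from the RefSeq start of the long noncoding RNA Gm31391. Another in the Tcf7l1 window, at 128 and 93, covered a start site of the comprehensive annotation and was nearest to Capg. Lef1 had 36 sites (11.47), Ctnnb1 26 (11.24) and Tcf7 22 (9.54). Axin1 was the exception, with 12 sites at 4.67 per 100 kb and 0 nearest to it, although its promoter had the highest effector score in replicate 1 (141) and, with Axin2 and Tcf7l1, in replicate 2 (131).

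**Figure D3:**
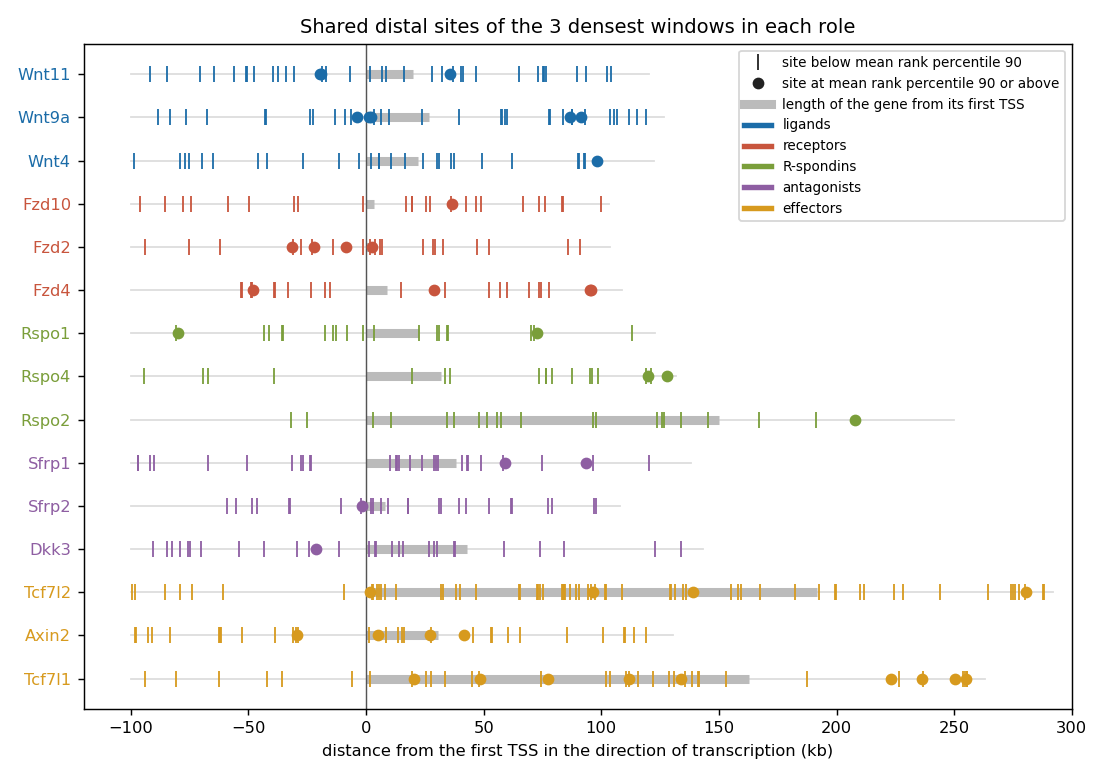
Shared distal sites (marks) around the first TSS of the 3 genes with the densest windows in each role, with distance in kb on the x axis in the direction of transcription and grey bars for gene length. Circles mark sites at mean rank percentile 90 or above. The 44 sites inside Tcf7l2 spread along the gene, and the strongest Rspo2 site lies 207.9 kb from the start, past the gene.

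The excess of distal sites was highest close to the start of the gene. From 1 to 10 kb on either side of the first TSS the 53 genes had a mean of 14.57 sites per 100 kb, against 6.7 for all genes. Downstream of the start this density was 18.66, against 7.08 for all genes, and upstream it was 10.48, against 6.31. From 10 to 25 kb the Wnt genes had 8.74, against 5.97, and from 75 to 100 kb 9.51, against 6.55. In these bins a site near both genes of a neighbouring ligand pair counted for each of them. In the nearest bin ligands had 17.25, effectors 15.87, receptors 13.7, antagonists 11.81 and R-spondins 8.33 sites per 100 kb. All 5 roles were thus above the all-gene value there, and R-spondins were below it at 10 to 25 kb (5.83, against 5.97) and at 50 to 75 kb (6.0, against 6.5). Receptors showed the widest step across the start, with 20.74 downstream against 6.67 upstream. At Fzd1 the 3 sites within 10 kb lay 1.5, 1.8 and 3.0 kb downstream. Its promoter hotspot was 2231 bp wide in replicate 1 and 1233 bp in replicate 2. Fzd4, with hotspots of 2008 and 1237 bp, had 0 sites within 10 kb. Whether sites of the nearest bin are separate from wide promoter hotspots was not tested.

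**Figure D4:**
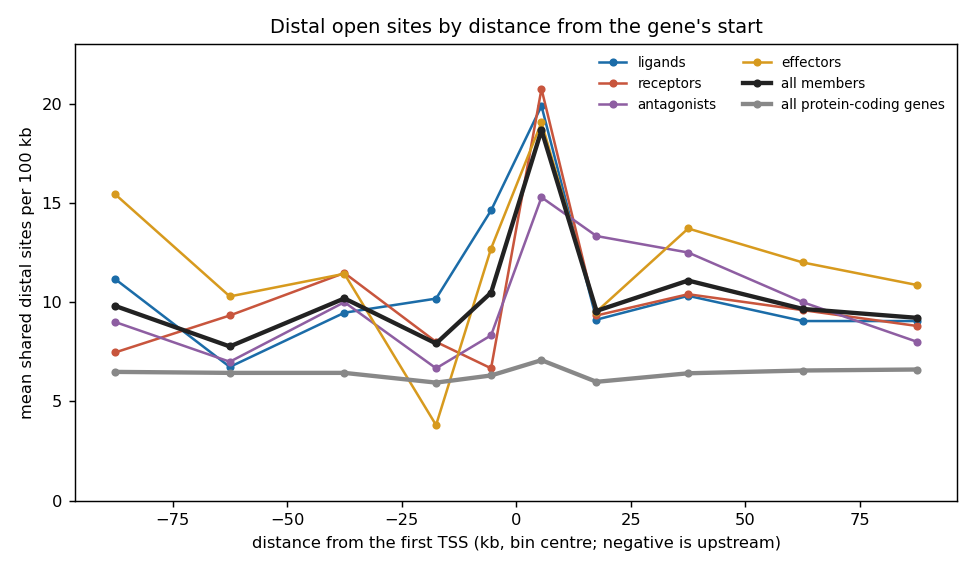
Mean shared distal sites per 100 kb (y axis) in bins of distance from the first TSS (x axis, kb, negative upstream) for 4 roles, all 53 genes and all protein-coding genes. R-spondins, with 4 genes, are in the mean of all 53 but have no line of their own. The black line peaks at 18.66 in the bin from 1 to 10 kb downstream, where the grey line of all genes is at 7.08.

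The replicates differed in how many distal peaks they held, and the Wnt windows followed the difference between the lists. The number of distal peaks in replicate 1 over that in replicate 2 had a median of 1.43 across the 53 windows (0.51 on the log2 scale), against 1.38 (0.46) across 17548 windows of all genes with at least 20 peaks. The highest ratios were at Fzd4 (51 in replicate 1 and 23 in replicate 2), Wnt9b (36 and 18), Wnt3 (45 and 23), Rspo2 (43 and 22) and Fzd10 (51 and 27). The lowest were at Sfrp2 (35 and 35), Sfrp1 (43 and 38), Wnt6 (30 and 25), Fzd2 (41 and 34) and Wnt10a (33 and 27). No Wnt window had more distal peaks in replicate 2, while 1066 of the 17548 windows did. The windows of Wnt3 and Wnt9b overlap, and so do those of Wnt6 and Wnt10a, so these are 8 separate places. Of the distal peaks in these windows 56.9% of 2124 in replicate 1 and 85.7% of 1428 in replicate 2 were matched in the other list, against 55.9% and 83.6% of all distal peaks. With 1 library on either side there is no replicate check on these ratios, and whether read depth or tissue differs cannot be told apart.

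**Figure D5:**
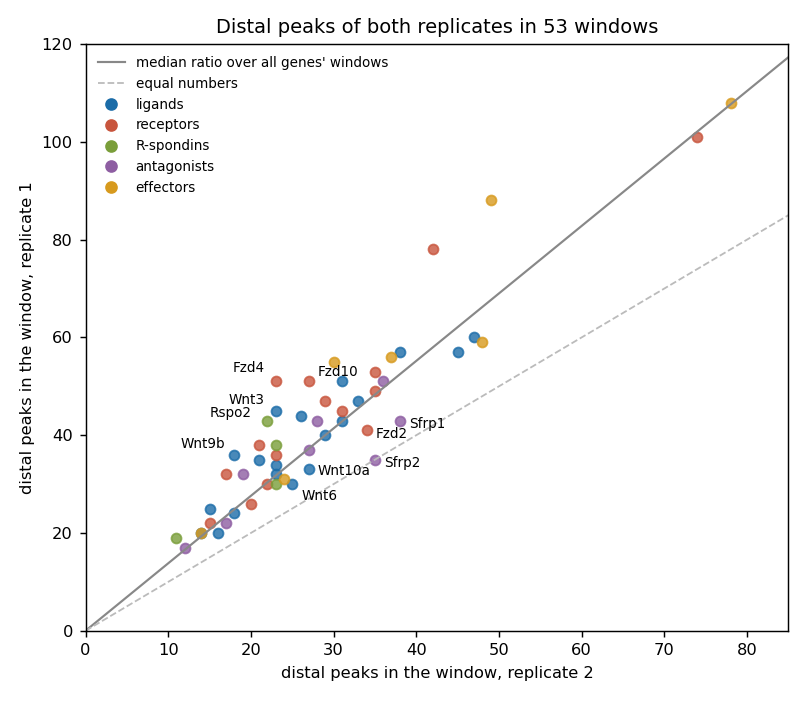
Distal peaks in each of the 53 windows in replicate 1 (y axis) and replicate 2 (x axis), coloured by role. The solid line is the median ratio of all genes' windows, 1.38, and the dashed line equal numbers. Fzd4 (51 in replicate 1 and 23 in replicate 2) lies farthest above the solid line in ratio, and Sfrp2 (35 and 35) lies on the dashed line.

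Other genes of the pathway, 51 in all and not among the 53, covered ligand secretion, further antagonists, Lgr receptors, the destruction complex, transcriptional cofactors and the planar cell polarity branch. Of these, 48 had a shared promoter site (94.1%), against 67.5% of all protein-coding genes. The 51 genes had a median promoter CpG ratio of 0.76, against 0.61 for all genes, and were not compared within classes of CpG content. The exceptions without a shared promoter site were Dkk4, Sost and Lgr6. Dkk4 and Sost had no promoter peak, and Lgr6, an R-spondin receptor, had promoter peaks of 82 in replicate 1 and 61 in replicate 2 that did not overlap. The median promoter scores of the 51 genes were 121 and 118 in replicates 1 and 2, close to the all-gene medians of 120 and 110 and above those of the Wnt ligands. Their median distal density was 8.85 per 100 kb, 1.41 times that of all genes, and 12 of the 51 were in the densest 10%. Among them were the corepressor gene Tle3 (17.88 per 100 kb), the Dkk co-receptor gene Kremen1 (15.18) and the feedback inhibitor gene Nkd1 (14.99). The ubiquitin ligase genes Znrf3 (13.57) and Rnf43 (13.2), which remove Frizzled receptors, were also there. The others were Celsr2 (14.24), Gsk3a (13.84), Csnk1a1 (13.63), Sost (13.2), Daam1 (12.73), Celsr1 (12.54) and Tle2 (12.48). Porcn, which encodes the enzyme that lipidates Wnts, had 1.88 and Wls, which encodes the carrier that brings them to the cell surface, had 4.01. A distal density above that of most genes was therefore also measured in these 51 genes.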

How the data were processed

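DNase-seq was made from 2 biological replicates of mouse facial prominence, and the authors deposited a peak list and a hotspot list for each replicate in mm10 coordinates. The authors' peak score, a deposited value with no stated normalization, was used only to rank and describe peaks. The deposited hotspot value is the −log10 of a q-value, per the broad peak format named with the files, with a ceiling of 100. Lists were made for each replicate separately, per the file descriptions. The aligner, caller and depth were not given in the sources used here. Because the labels list instruments for replicate 1 alone, sequencing batch and replicate cannot be told apart.

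Regions off chromosomes 1 to 19, X and Y and repeated coordinates were left out, which left 304233 and 217980 peaks and 277933 and 198482 hotspots. Overlap of 1 bp or more made a site shared. Start sites came from the basic GENCODE M21 annotation, and sequences were read from the RefSeq GRCm38.p6 assembly, which has the coordinates of mm10. Promoter CpG ratios were taken over 500 bp on either side of a start site, the highest kept. Python 3.11.15, NumPy 2.4.6, pysam 0.24.0 and matplotlib 3.10.9 were used, and the counting was checked on simulated sites.

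The genes, lists, sites and alternatives were chosen with earlier results of these data known. In each role, the 3 genes with the densest windows, genes without a shared promoter site and genes with a peak in 1 replicate only were described in depth, with the 3 distal sites of highest rank per role, the Axin2 and Lef1 sites with a LEF/TCF match, and the 5 highest and 5 lowest replicate ratios. Sequences were printed from those sites. The remaining genes are given by their values. The study has 1 group, so no p-value was computed. The 8 planned and 2 added alternatives are given in the closing section. The result of 1 marker list is not reported here.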

Additional observations from a re-analysis of the deposited data

How the results depend on the processing

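The number of genes with an open promoter kept within 1.5 times its value in every role under the 6 alternatives run for promoters, with 45 to 50 of 53 genes open. Distal densities relative to all genes moved by more than the spread between single replicates under several settings and stayed above 1 in all roles. Where a role or the whole set is not named for a setting, its ratio stayed within that spread. With the stronger part of each list the ratio was 2.1 for all 53 genes, 2.3 for ligands, 2.03 for receptors, 1.28 for R-spondins and 2.66 for effectors. For antagonists it was 1.41, beside 1.4 as reported. With flanks of 50 kb the ratio was 1.81 for all, 1.75 for ligands, 1.8 for receptors, 1.2 for R-spondins, 1.89 for antagonists and 1.95 for effectors. With only the stretch nearest to each gene's start it was 2.25 for all, 2.3 for ligands, 2.25 for receptors, 1.24 for R-spondins, 2.02 for antagonists and 2.68 for effectors. An overlap of 75 bp gave 1.57 for all and 1.36 for antagonists, and hotspots gave 1.46 for antagonists. Leaving out a replicate gave ranges of 1.41 to 1.47 for all, 1.44 to 1.47 for ligands, 1.38 to 1.53 for receptors and 1.08 to 1.16 for R-spondins. The ranges were 1.41 to 1.45 for antagonists, 1.8 to 2.19 for effectors and 10 to 17 genes in the densest 10%. After the data were seen, 2 settings were added. Defining distal sites by the comprehensive annotation gave 1.62 for all, 1.66 for ligands, 1.22 for R-spondins, 1.44 for antagonists and 17 genes in the densest 10%, and counting per 100 kb of sequence over 1 kb from every start site gave 1.58 for ligands and 7 genes. The cause of these shifts was not tested. No paired analysis was possible because the study has 1 group. Read depth is unknown and limits every absence of a peak.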
